A study of Mus musculus with 12 samples.

Results

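Chromosome 8 carried 2408 of the 31663 differentially methylated CpG entries in 5 lists that compared mouse embryonic stem cells (ESCs) with and without Tet proteins. These entries fell on 1721 distinct CpGs, of 22659 over all chromosomes. The members were taken by 1 rule, their position on chromosome 8 in the deposited lists, and each list held only CpGs that the authors had selected on the difference itself (at least 25 percentage points, with at least 10 reads and a q-value under 0.05). Counts, directions and sizes are therefore given as a description, without a test, and the exact binomial (Clopper-Pearson) 95% intervals beside shares cover counting error only.

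The data came from reduced representation bisulfite sequencing (RRBS) of genomic DNA, in which the enzyme MspI cuts at CCGG, short fragments are kept, and bisulfite converts unmethylated cytosine. The 12 samples were clones of undifferentiated ESCs in normal culture, all from 1 parental 129/SVj-derived line that carries an Oct4:IRES:eGFP reporter, in which the Tet knockouts were made with Cas9: 3 WT, 3 Tet1 KO (Tet1-/-), 2 Tet2 KO (Tet2-/-), 2 DKO (Tet1-/-:Tet2-/-) and 2 TKO (Tet1-/-:Tet2-/-:Tet3-/-) clones. Groups were taken from the sample titles. The titles and the stated genotype disagreed for 3 clones, since DKO replicate 1 was entered as Tet2-/- and both TKO replicates as DKO, so the values labelled DKO and TKO carry this doubt and, being pooled by genotype, cannot be given without these clones. The Tet2 KO and Tet1 KO lists, and the list comparing both, hold none of these 3 clones by their titles. The lists compared TKO, DKO, Tet2 KO and Tet1 KO with WT, and Tet2 KO with Tet1 KO. Each value pooled the clones of a genotype, so the spread between clones, the depth behind a CpG and its methylation level are unknown here, and the 4 comparisons with WT share the same WT clones.

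Tet proteins oxidise 5-methylcytosine to 5-hydroxymethylcytosine and further products, which can lead to loss of the methyl group, so cells without them would in general be thought to keep more methylation. Tet1 and Tet2 are the members that ESCs express most, and Tet3 is known mainly from the zygote and from differentiated cells. Chromosome 8 is known in ESC work because mouse lines in culture often gain an extra copy of it. The copy number of chromosome 8 in these clones was not analysed here.

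The regions on which the results below turn are printed first, to show what a listed CpG is in this assay. Each line gives the forward strand of the mm9 assembly (NCBIM37), 5′ to 3′, with 30 bases on either side, in lower case, and capitals mark CpGs that were in any of the 5 lists. The first group was higher in knockout cells: chr8:90975294-90975369 lies upstream of Nkd1, chr8:87535354-87535430 in an exon of Best2, chr8:111256663-111256732 and chr8:117534647-117534726 in introns of Zfhx3 and Wwox, chr8:86107303-86107414 in an intron of Tecr, chr8:125201074-125201137 in an intron of Cbfa2t3, chr8:47019807-47019940 in the promoter of Ccdc110, chr8:87295741-87295827 in an exon of Nfix, and chr8:108536365-108536438 in a B2 element, a short interspersed repeat, near the starts of Ddx28 and Dus2l.
Nkd1 upstream: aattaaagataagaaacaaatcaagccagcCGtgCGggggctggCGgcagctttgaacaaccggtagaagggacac
Best2 exon: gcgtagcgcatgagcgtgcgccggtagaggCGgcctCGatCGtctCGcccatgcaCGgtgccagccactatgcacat
Zfhx3 intron: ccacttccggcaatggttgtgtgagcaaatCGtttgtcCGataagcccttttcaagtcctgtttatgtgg
Wwox intron: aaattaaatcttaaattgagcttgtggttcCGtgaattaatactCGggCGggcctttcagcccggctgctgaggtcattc
Tecr intron: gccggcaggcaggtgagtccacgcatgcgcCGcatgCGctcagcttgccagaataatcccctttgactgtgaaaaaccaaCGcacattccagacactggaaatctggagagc
Cbfa2t3 intron: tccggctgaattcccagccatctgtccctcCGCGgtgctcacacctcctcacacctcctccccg
Ccdc110 promoter: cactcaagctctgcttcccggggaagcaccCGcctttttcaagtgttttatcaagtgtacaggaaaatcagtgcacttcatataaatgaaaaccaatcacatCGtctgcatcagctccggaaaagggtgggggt
Nfix exon: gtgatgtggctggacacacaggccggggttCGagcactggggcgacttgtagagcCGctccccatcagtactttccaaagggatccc
Ddx28 upstream: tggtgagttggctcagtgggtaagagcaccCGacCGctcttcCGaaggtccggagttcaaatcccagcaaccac

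The second group was lower in knockout cells: chr8:73277516-73277586 upstream of Rab3a, chr8:128193487-128193548 in the promoter of Map10, chr8:81061470-81061539 in an intron of Slc10a7, and chr8:60777609-60777682 in an L1Md_A element (a long interspersed repeat) within Galntl6.
Rab3a upstream: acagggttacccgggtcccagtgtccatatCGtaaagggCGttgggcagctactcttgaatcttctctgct
Map10 promoter: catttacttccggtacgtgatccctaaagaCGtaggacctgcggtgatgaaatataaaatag
Slc10a7 intron: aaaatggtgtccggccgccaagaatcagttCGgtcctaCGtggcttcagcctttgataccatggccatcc
L1Md_A in Galntl6: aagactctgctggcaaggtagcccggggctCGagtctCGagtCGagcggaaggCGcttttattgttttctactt

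The third group was higher in Tet2 KO than in Tet1 KO cells: chr8:77516887-77516965 in the promoter of Hmgxb4, chr8:91556345-91556411 in an exon of Sall1, and chr8:80060716-80060781 upstream of Prmt9.
Hmgxb4 promoter: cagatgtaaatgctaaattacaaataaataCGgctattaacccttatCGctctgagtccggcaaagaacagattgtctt
Sall1 exon: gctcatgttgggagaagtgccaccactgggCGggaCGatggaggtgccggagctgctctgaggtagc
Prmt9 upstream: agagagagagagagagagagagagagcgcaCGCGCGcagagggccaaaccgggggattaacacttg
Every one of these 16 windows holds a CCGG, and the first listed CpG lay 7 to 32 bp from the nearest one. None of the 1721 listed CpGs was the CpG of a CCGG itself, although 30.9% of the CpGs in an in-silico MspI digest of chromosome 8 were, and the authors had clipped the first 6 bases of each read. The number of CpGs in a window varied: that of Zfhx3 holds 3 in 70 bases, of which 2 were listed, that of Nkd1 4 in 76 bases, of which 3 were listed, and that of Best2 10 in 77 bases, of which 5 were listed.

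In TKO cells 638 CpGs of chromosome 8 were listed, 375 higher and 263 lower than in WT, so 58.8% were higher (95% interval 54.8 to 62.6), against 58.6% of the 8001 listed CpGs of all chromosomes. In DKO cells 559 were listed, 358 higher and 201 lower, which is 64.0% (59.9 to 68.0) against 64.8% of 7078. In Tet2 KO cells 543 were listed, 427 higher and 116 lower, which is 78.6% (74.9 to 82.0) against 77.7% of 6888. In Tet1 KO cells 380 were listed, 241 higher and 139 lower, which is 63.4% (58.4 to 68.3) against 65.6% of 5571. Gains outnumbered losses in all 4 lists against WT, and the share of each list that was higher on chromosome 8 lay near that of all chromosomes.

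The list that set Tet2 KO against Tet1 KO held 288 CpGs of chromosome 8, 181 higher in Tet2 KO and 107 lower, which is 62.8% (57.0 to 68.4) against 67.0% of 4125. It shares its clones with both single-knockout lists. Among the 19 autosomes, ranked from the lowest share upwards, chromosome 8 was at place 13 in TKO, 9 in DKO, 12 in Tet2 KO, 6 in Tet1 KO and 3 in the direct comparison. The direction of change on chromosome 8 thus stood inside the range of the autosomes in every list, which ran from 52.2 to 65.5% in TKO and from 58.4 to 73.0% in the direct comparison.

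The differences on chromosome 8 spanned the whole range that the selection left. The median gain was 37.3 percentage points in TKO, 38.9 in DKO, 37.3 in Tet2 KO, 33.8 in Tet1 KO and 37.6 in Tet2 KO against Tet1 KO. The median loss was -35, -35.4, -35.1, -32.4 and -34.1 points in the same order. Gains of 50 points or more made up 27.7% of the gains in TKO, 23.7% in DKO and 22.5% in Tet2 KO, but 9.96% in Tet1 KO, where 24 of 241 gains were that large. Losses of 50 points or more made up 7.91% of the losses in Tet1 KO, against 19.4% in TKO, 19.4% in DKO and 19% in Tet2 KO. Large differences in either direction were the least frequent in the Tet1 KO list. Tet1 KO was the only knockout with 3 clones, and the part of clone number in this was not tested. The smallest absolute difference on chromosome 8 was 25.0024 points, in the TKO list, and CpGs just under 25 points were not in the lists.

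**Figure D1:**
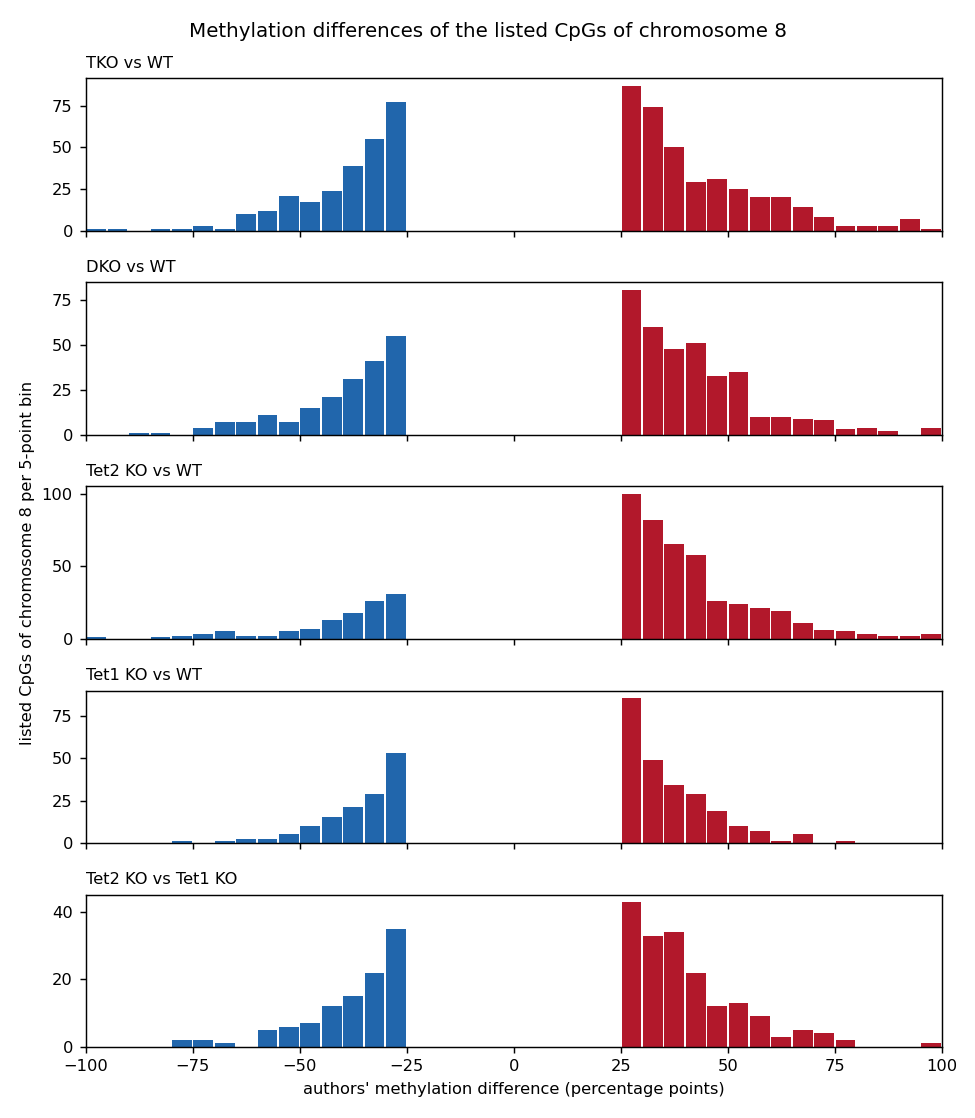
Number of listed CpGs of chromosome 8 per bin of 5 percentage points (y axis, 1 scale per panel) against the authors' methylation difference (x axis), with gains in red and losses in blue, for the 5 lists. No value lies between -25 and 25 because the lists were selected on the difference; the Tet1 KO panel has the shortest tails, with 24 gains and 11 losses of 50 points or more.

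Chromosome 8 was listed more densely than most autosomes. An in-silico MspI digest of the reference (fragments of 40 to 300 bp, CpGs in the outer 38 bases) held 72520 CpGs on chromosome 8 and stood in for the CpGs that the assay could reach, since the tested CpGs are not in the lists. Per 10000 digest CpGs, 80.1 were listed on chromosome 8 in TKO, 70.7 in DKO, 68.5 in Tet2 KO, 48.1 in Tet1 KO and 36.3 in Tet2 KO against Tet1 KO. The medians of the other autosomes were 55.7, 46.3, 46.7, 38.3 and 27.8 in the same order. Chromosome 8 ranked 2 of 19 from the highest in each of the 5 lists, behind chromosome 1, whose values were 89.5, 94.2, 83.5, 69.6 and 48.6. These 5 places are not 5 independent observations, since the lists share clones, and coverage or copy number of the chromosomes, which the lists do not hold, was not tested as a part of them.

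**Figure D2:**
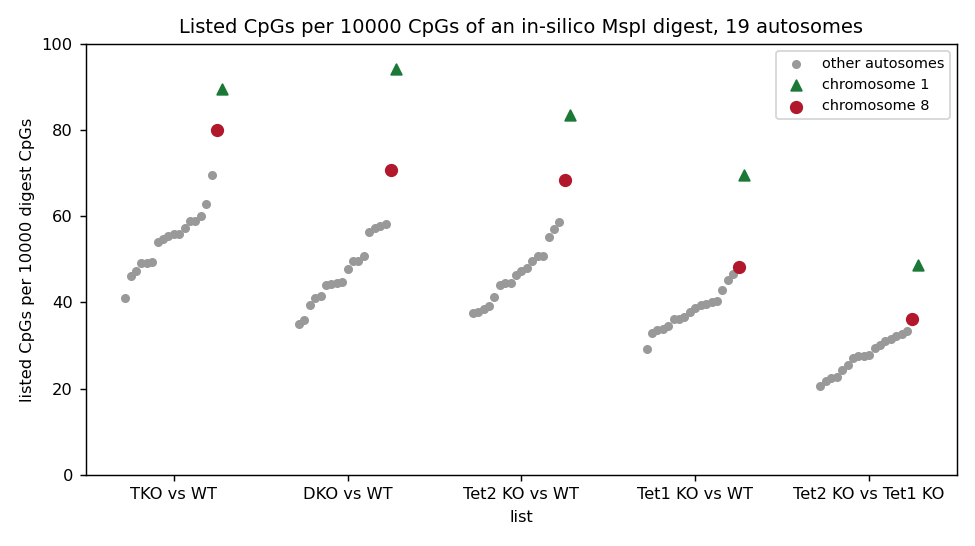
Listed CpGs per 10000 CpGs of the in-silico MspI digest (y axis) for the 19 autosomes in each of the 5 lists (x axis), each point 1 chromosome, sorted within a list. Chromosome 8 (red) sits below chromosome 1 (green triangle) and above the other 17 autosomes in each list, at 80.1 in TKO and 48.1 in Tet1 KO.

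Along the chromosome the listed CpGs were most numerous near the distal end, which by density was not so in every list. Counted in 14 windows of 10 Mb, window 13 (120 to 130 Mb) held the most listed CpGs in each list: 146 in TKO, 125 in DKO, 126 in Tet2 KO, 101 in Tet1 KO and 58 in Tet2 KO against Tet1 KO. It also held the most reachable sequence, 18.3% of the digest CpGs of the chromosome, while its share of the listed CpGs was 22.9%, 22.4%, 23.2%, 26.6% and 20.1%. This window carries Foxl1, Irf8, Zfpm1, Cbfa2t3 and Galnt2. The second was window 12 (110 to 120 Mb), with 89, 79, 73, 45 and 39 listed CpGs on 8.34% of the digest CpGs, and it carries Zfhx3, Wwox and Maf.

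Per 10000 digest CpGs, window 12 was the densest in TKO (124.0), DKO (117.4), Tet2 KO (110.8) and the direct comparison (56.2), and window 13 in Tet1 KO (74.0). Window 5 (40 to 50 Mb) was denser than window 13 in DKO (97.7 against 91.3) and in the direct comparison (45.7 against 40.8). It was less dense than window 13 in TKO (91.5 against 105.7), Tet2 KO (89.4 against 90.6) and Tet1 KO (54.1 against 74.0). Next by number came window 10 (90 to 100 Mb) in TKO with 58 CpGs, in Tet1 KO with 37 and in the direct comparison with 31, window 8 (70 to 80 Mb) in DKO with 54 and window 9 (80 to 90 Mb) in Tet2 KO with 47. Window 6 (50 to 60 Mb) held the fewest listed CpGs of the complete windows, with 4, 10, 8, 5 and 3. It also held the fewest digest CpGs of these windows, 2.88%. By density it was not the lowest in every list: window 4 was lower in DKO (37.3 against 43.0) and in Tet2 KO (37.3 against 38.2). Direction varied between windows within a list: in TKO 18 of 43 CpGs were higher in window 2 (41.9%) and 23 of 30 in window 4 (76.7%), and in Tet2 KO the share was lowest in window 8, among the windows with at least 20 CpGs, at 28 of 43 (65.1%).

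**Figure D3:**
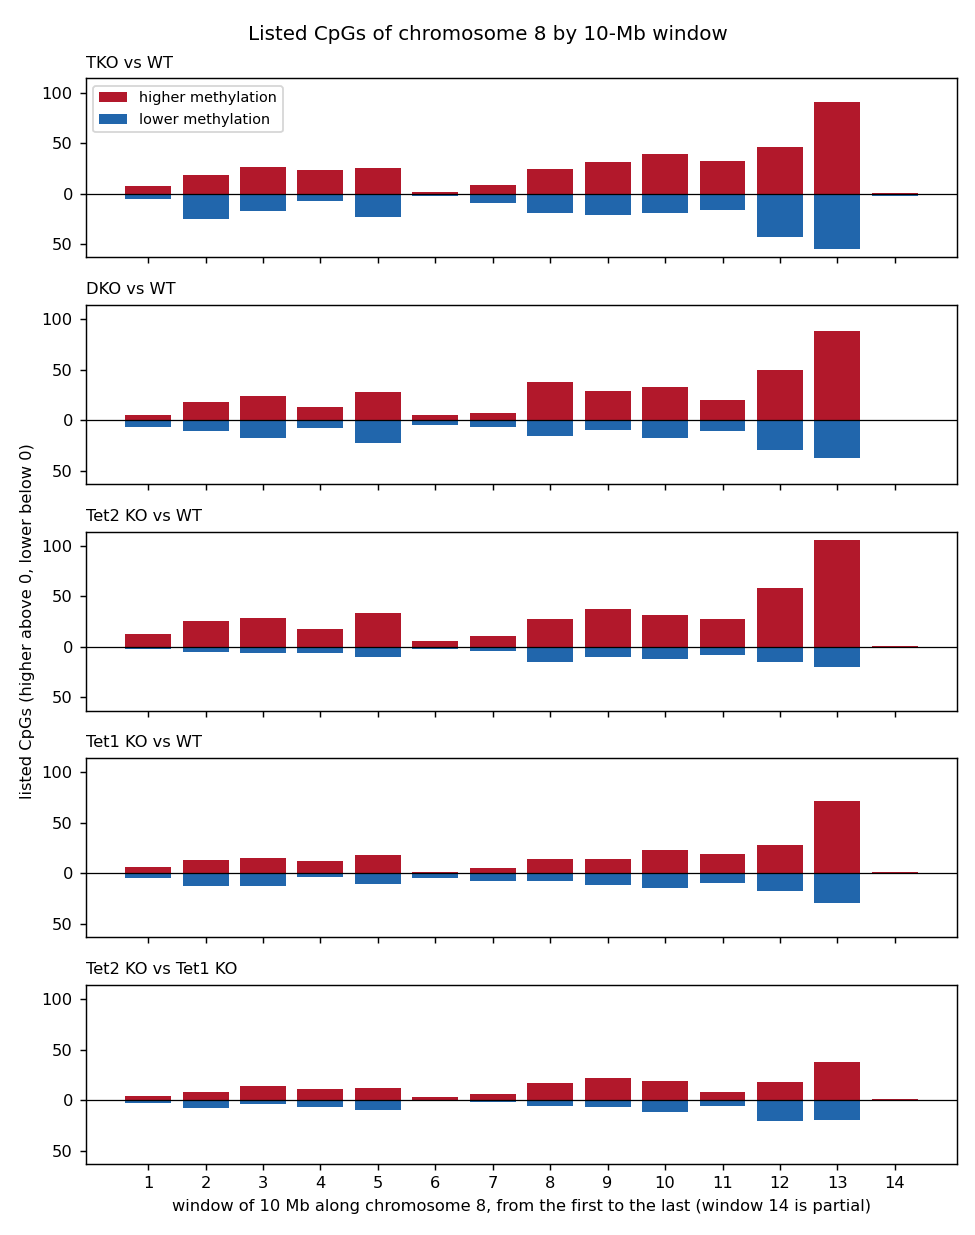
Listed CpGs (y axis) in the 14 windows of 10 Mb along chromosome 8 (x axis), with higher methylation above 0 in red and lower methylation below 0 in blue, for the 5 lists. Window 13 is the tallest in every panel, at 146 CpGs in TKO and 101 in Tet1 KO, and window 6 is nearly empty, at 4 and 5.

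Most members lay outside promoters. By GENCODE vM1 gene models (promoter from 1000 bp before to 100 bp after a start), promoters held 5.49% of the members in TKO, 4.83% in DKO, 4.24% in Tet2 KO, 3.16% in Tet1 KO and 5.21% in the direct comparison, against 22.8% of the digest CpGs of the chromosome. Introns held 35%, 36.5%, 33.5%, 37.1% and 36.5% of them, and intergenic sequence 42.3%, 43.8%, 45.3%, 45.3% and 43.1%. The members also lay in poorer sequence than the reachable CpGs: the median GC content of the 500 bp around a member was 51.2% for gains and 48.2% for losses in TKO, and 50.9% and 48.0% in DKO, against 58.6% for the digest CpGs. The same 500 bp held a median of 12 CpGs around gains and 10 around losses in TKO, and 11 around both in Tet1 KO, against 24 for the digest CpGs. These digest CpGs include those of CCGG sites (30.9%), none of which was listed. The class, GC and CpG comparisons were not made without them.

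The share of gains was also taken by feature class. In TKO 24 of 35 promoter CpGs were higher (68.6%, 50.7 to 83.1) and 76 of 110 exon CpGs (69.1%, 59.6 to 77.6), but 127 of 223 intron CpGs (57.0%, 50.2 to 63.5) and 148 of 270 intergenic CpGs (54.8%, 48.7 to 60.9). In DKO the same shares were 22 of 27 (81.5%, 61.9 to 93.7), 58 of 83 (69.9%, 58.8 to 79.5), 129 of 204 (63.2%, 56.2 to 69.9) and 149 of 245 (60.8%, 54.4 to 67.0). In Tet2 KO the classes were at 16 of 23 promoter (69.6%, 47.1 to 86.8), 74 of 92 exon (80.4%, 70.9 to 88.0), 139 of 182 intron (76.4%, 69.5 to 82.3) and 198 of 246 intergenic CpGs (80.5%, 75 to 85.2). In Tet1 KO they were 8 of 12, 40 of 55, 89 of 141 and 104 of 172. Within each list the intervals of the 4 GENCODE classes overlapped. On the other chromosomes the shares of promoter, exon, intron and intergenic CpGs were 74.0, 67.4, 57.7 and 53.7% in TKO, 78.2, 70.8, 62.9 and 62.4% in DKO, 86.0, 77.5, 76.6 and 77.2% in Tet2 KO and 73.2, 69.7, 62.7 and 65.9% in Tet1 KO. The Tet2 KO promoters of chromosome 8 thus lay below those elsewhere by their point value, with an interval that holds the value elsewhere. By the classes the authors deposited, 18 of 20 promoter CpGs were higher in TKO (90.0%, 68.3 to 98.8). That interval lay above those of intron (49.0 to 61.8) and intergenic CpGs (49.0 to 61.6) and overlapped that of exons (56.2 to 76.7). The deposited promoter class was higher at 15 of 20 CpGs in Tet2 KO and 7 of 11 in Tet1 KO. Elsewhere its shares were 79.7% in TKO, 88.1% in Tet2 KO and 76.7% in Tet1 KO. Members in CpG islands of that annotation were few: 1 of 6 was higher in TKO, 4 of 5 in Tet2 KO and 0 of 2 in Tet1 KO. On the other chromosomes the island shares were 80.5% in TKO, 84.6% in Tet2 KO and 63.4% in Tet1 KO.

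**Figure D4:**
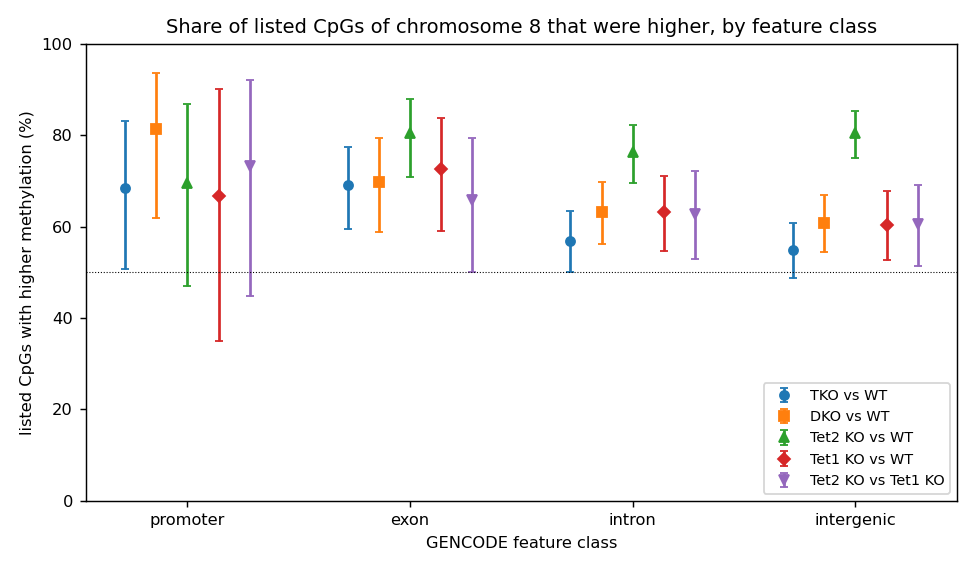
Percent of the listed CpGs of chromosome 8 with higher methylation (y axis) in 4 GENCODE feature classes (x axis) for the 5 lists; points are shares and bars are exact binomial 95% intervals for counting error. Tet2 KO lies between 69.6% and 80.5% in all classes, while TKO falls from 69.1% in exons to 54.8% between genes.

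Within 2000 bp of a GENCODE start, whatever the class, 68 of 95 CpGs were higher in TKO (71.6%, 61.4 to 80.4), 67 of 82 in DKO (81.7%, 71.6 to 89.4), 62 of 77 in Tet2 KO (80.5%, 69.9 to 88.7), 34 of 44 in Tet1 KO (77.3%, 62.2 to 88.5) and 25 of 36 in Tet2 KO against Tet1 KO (69.4%, 51.9 to 83.7). Farther away the shares were 56.5% of 543, 61.0% of 477, 78.3% of 466, 61.6% of 336 and 61.9% of 252. On the other chromosomes together the shares near a start were 71.5%, 76.1%, 82.3%, 68.6% and 68.2%.

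Repeats, as named in the annotation the authors deposited with the TKO and single-knockout lists, carried fewer gains than the rest in TKO and Tet1 KO. In TKO 51 of 110 repeat CpGs were higher (46.4%, 36.8 to 56.1), against 324 of 528 elsewhere on the chromosome (61.4%), and the repeat CpGs of the other chromosomes were higher at 45.9% of 1604. In Tet1 KO 26 of 62 were higher (41.9%, 29.5 to 55.2), against 215 of 318 (67.6%), and the repeat CpGs of the other chromosomes were higher at 63.5% of 1141. In Tet2 KO the share was 81 of 109 (74.3%, 65.1 to 82.2), against 346 of 434 (79.7%), and 74.5% of 1402 in repeats of the other chromosomes. Of the Tet1 KO repeat CpGs, 14 of 22 in LINEs and 14 of 23 in SINEs were lower, and 8 of 16 in long terminal repeats. Neighbouring CpGs of an element share reads, and reads from repeats can be placed on the wrong copy.

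Listed CpGs were mostly single. Merged within 1000 bp they formed 551 regions in TKO, 484 in DKO, 483 in Tet2 KO, 352 in Tet1 KO and 263 in the direct comparison, of which 78, 66, 54, 27 and 23 held more than 1 CpG. No region held more than 4. The region of DKO with the most CpGs lay in an exon of Best2, a bestrophin chloride channel, where 4 CpGs within 17 bp were higher by 42.3, 60.7, 39.3 and 54.8 points. The capitalised CpG that follows them was higher by 78.6 points in TKO, and the CpG at 87535390 was higher by 36.4 points in Tet2 KO. The capitals in the Best2 sequence show how close these 5 CpGs stand.

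Upstream of Nkd1, which encodes an inhibitor of Wnt signalling that binds Dishevelled, 3 CpGs within 16 bp and 69919 to 69905 bp before the start were among the leading regions of 3 lists. In DKO they were higher by 50.7, 41.8 and 75.2 points, in TKO by 34.8, 69.3 and 37.3 points. In Tet2 KO the latter pair was listed at 50.4 and 45.7 points, and against Tet1 KO the same pair was higher in Tet2 KO by 60.2 and 54.1 points. None of the 3 was in the Tet1 KO list, which does not show that they were unchanged there.

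In TKO the leading regions also included 3 CpGs in the last intron of Wwox, a WW-domain oxidoreductase, at 43.0, 44.4 and 64.3 points, and 3 CpGs in a B2 element 1009 to 1021 bp before the start of Ddx28, a mitochondrial RNA helicase, at 35.2, 30.3 and 80.9 points. A region in an intron of Cmip, an adaptor protein gene, had 27.3, 58.7 and 36.3 points. One leading region was lower: 3 CpGs that start at 113948578, upstream of Fa2h, had -39.3, -41.9 and -35.7 points. In DKO 3 CpGs 5752 to 5800 bp upstream of Slc25a4, the heart and muscle ADP/ATP carrier, had 40, 50.9 and 44.2 points. An intergenic region nearest to A330074K22Rik had 53.6, 40.2 and 43.9 points, and a region in a B3A element nearest to 1700018B08Rik had 34.6, 53.4 and 33.8 points.

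In Tet2 KO the leading region held 4 CpGs in the last exon of Cbfa2t3, a transcriptional corepressor of the ETO family, at 31.3, 40.5, 50.8 and 43.1 points. In TKO 3 other CpGs of that exon were listed at 26.0, 33.6 and 35.8 points. Tecr, an enzyme of very long chain fatty acid synthesis, had 3 CpGs in its first intron at 75.9, 68.2 and 37.0 points, all in Tet2 KO. An intergenic region of 3 CpGs, nearest to 1810011O10Rik, had 45.2, 67.3 and 26.2 points and one in a B1 element nearest to Zdhhc7, a palmitoyltransferase, 32.3, 37.0 and 27.1 points. In the last exon of Helt, a basic helix-loop-helix repressor of neuronal development, 2 CpGs were higher by 60.8 and 54.2 points and the next had -27.3 points.

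The leading regions of Tet1 KO were mixed. In an L1Md_A element within Galntl6, a member of the GalNAc transferase family, 3 CpGs had -28.3, -27.0 and -36.3 points. One of these was higher in Tet2 KO than in Tet1 KO by 39.9 points, and another CpG of the element was lower in DKO (-35.4) and in Tet2 KO (-29.6). In an intron of Slc10a7, a solute carrier, a pair had -52.4 and -77.6 points, the latter being the largest loss of the list on this chromosome. Gains stood in an intron of Plcg2, a phospholipase of immune signalling, at 48.7 and 63.7 points, and in an exon of Klhl36 at 65.9 and 25.4 points, and a pair of losses 338269 bp before Psmd7, a proteasome subunit, had -35.5 and -43.1 points.

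In Tet2 KO against Tet1 KO, 3 adjoining CpGs 12550 to 12546 bp upstream of Prmt9, an arginine methyltransferase, were higher by 46.0, 38.8 and 47.7 points. The outer pair was higher in Tet2 KO than in WT by 51.2 and 58.0 points, and the middle CpG was lower in Tet1 KO than in WT (-25.9). A pair in an intron of Kat6a, a histone acetyltransferase, was higher by 53.6 and 69.7 points. In an exon of Sall1, a zinc finger factor of kidney and limb development, a pair was higher by 39.0 and 76.3 points, the first CpG was lower in Tet1 KO than in WT (-26.9), and the second was higher in Tet2 KO (39.3) and DKO (80.6) than in WT. In the last exon of Dlc1, 3 CpGs had 25.7, -34.1 and -29.4 points.

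Gains reached the top of the scale, while the lowest value on chromosome 8 in any list was -97.6 points. A gain of 100 points, which requires a pooled level of 0 in one genotype and of all reads in the other, was listed at 4 entries of chromosome 8. Of these, 3 were in DKO: in the first exon of Cmtm1, of the chemokine-like factor family, 211 bp after its start, in the second exon of Mphosph6, a factor of the RNA exosome, and in Ttc13. The remaining one was in Tet2 KO, in the first intron of Zfhx3, a homeobox and zinc finger factor, where its listed neighbour reached 95.7 points. These Zfhx3 CpGs were higher by 34.9 and 42.4 points in DKO.

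In TKO the highest values were 98.1 points in a B3A element 30633 bp before Irf8, a myeloid transcription factor, 94.3 points in an exon of Fat1, an atypical cadherin, and 92.3 points 3908 bp before Jund, an AP-1 subunit. Fat1 also held 95.3 points in Tet2 KO, in its second intron. The Irf8 CpG was listed at 73.1 points in DKO. In Tet1 KO the highest values were 77.4 points in an intron of 2810404M03Rik, 68.9 points 2966 bp from Gm1943 and 68.5 points in an intron of 1700019B03Rik. In the direct comparison they were 98.8 points in a MIRb element 106315 bp from Dctd, 77.5 points in an RLTR9E element 131862 bp before Ttc29, and the Sall1 value of 76.3 points.

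The lowest values were -97.6 points in TKO in an exon of Cmc2, a mitochondrial protein of cytochrome oxidase assembly, -90.2 points in TKO in the last intron of Wwox, and -80.5 points in TKO in Pgbd5, a domesticated transposase gene. In DKO they were -88.3 points in an intron of Sorbs2, an adaptor of the actin cytoskeleton, -82.8 points upstream of Pmfbp1 and -73.2 points upstream of Tacc1. In Tet2 KO they were -96.8 points 13252 bp before Rbl2, a pocket protein of the retinoblastoma family, and -83.8 points in Fendrr, a long noncoding RNA beside Foxf1. The Rbl2 CpG was also among the 3 lowest in Tet1 KO (-62.2), with -66.8 points 205959 bp before Gm5347. In the direct comparison the lowest were -80 points in an L1Md_F2 element 21100 bp before Anxa10, -78.9 points in an ORR1E element nearest to 4930563M20Rik and -71.4 points in an exon of Fam65a, the CpG being nearest to Mir1966. The same CpG of Mir1966 had -71.4 points in Tet2 KO and -64 points in DKO against WT.

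Around start sites, by the distance in the annotation (for the DKO list from another list or from GENCODE), 50 genes had a listed CpG within 2000 bp in TKO, of which 40 had only gains and 9 only losses. In DKO the numbers were 64, 51 and 8, in Tet2 KO 48, 36 and 9, in Tet1 KO 23, 17 and 6, and in Tet2 KO against Tet1 KO 30, 19 and 10. The DKO numbers are not comparable with the others, since 304 of its 559 CpGs took GENCODE starts: with GENCODE starts for every list, 95 CpGs lay within 2000 bp in TKO and 82 in DKO. In TKO Ddx28, described above, had the most CpGs there, and in DKO Pik3r2, a regulatory subunit of a lipid kinase, with 3 CpGs between -31.8 and 70.8 points. In TKO Cmtm1 had 2 exon CpGs between 31.2 and 53.1 points and 4930567H12Rik 2 CpGs between 38 and 53.7 points. Adgrg1 had 1 gain and 1 loss in TKO (29.6 and -30.2 points), and 2 CpGs of Irx5 were lower (-46.2 and -28.6). Nfix, a nuclear factor I gene singled out after its values were seen, had in its promoter in TKO 2 CpGs at 41 and 34.2 points, and 2 further CpGs in its exon 2 were higher in both TKO (25.6 and 31.1) and DKO (33.3 and 65). Gsr, the glutathione reductase gene, had 2 promoter CpGs at 27.1 and 41.6 points in TKO. In Tet2 KO Isyna1, the inositol phosphate synthase, and in the direct comparison Hmgxb4, an HMG-box gene (54.3 and 59.5 points), each had 2 CpGs that were higher. Both signs stood at 5 genes in DKO: Ank1, Ndrg4, Pik3r2, St3gal2 and Tmem161a. The same held for 3 genes in Tet2 KO (Mboat4, Slc5a5 and Tmem59l) and for 1 in the direct comparison (B3gnt9).

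Of the genes with a CpG within 2000 bp of the start in at least 3 of the 4 lists against WT, most had gains. The CpG 971 bp after the start of Cbfa2t3 was listed at 80.6 points in DKO, 57.4 in TKO and 28.4 in Tet1 KO. That 166 bp before Ccdc110, a coiled-coil gene, was listed at 78.3 points in Tet2 KO, 39.1 in Tet1 KO and 30.6 in TKO. That 833 bp before Csnk2a2, a catalytic subunit of casein kinase 2, was listed at 55.6 points in TKO, 35.5 in DKO and 34.6 in Tet1 KO. These 4 lists share the WT clones, so a WT level that is high or low by chance enters each of them.

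Calr, the endoplasmic reticulum chaperone calreticulin, had 41.6 points in DKO, 38 in TKO and 25 in Tet2 KO at 1 CpG of exon 4. Gas6, a ligand of TAM receptors, had 60.8 points in DKO and 28.5 in Tet1 KO at 1 CpG of its second intron and 33.3 points in TKO at another CpG of that intron. Cirh1a, a ribosome biogenesis factor, had 41.8 and 26.8 points in DKO, 33.9 in TKO and 48.5 in Tet2 KO at 3 CpGs of its second exon. B3gnt9, a glycosyltransferase gene, had 60.3 and 44.6 points in TKO, 35.8 in Tet2 KO and, on the other side of the start, 32.8 in DKO, and Gm5907 had 47.4 in DKO, 28.8 in TKO and 27.7 in Tet2 KO. 2810004N23Rik had 64.7 points in Tet2 KO, 56.4 in DKO, 36.8 in TKO and 29.8 in Tet1 KO at 1 CpG.

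Losses at a start in 3 or more of these lists were seen at Rab3a and Map10. Rab3a, a GTPase of synaptic vesicles, had 2 neighbouring CpGs 1032 and 1023 bp before its start: the first had -56.1 points in TKO, -40.4 in Tet2 KO and -32.5 in Tet1 KO, and the second -33.6 in TKO and -26.2 in DKO. A CpG 778 bp after a start had -59.4 points in DKO. Map10, a microtubule-associated protein gene, had 1 promoter CpG at -36.9 points in DKO, -36.3 in Tet1 KO and -35.8 in Tet2 KO. St3gal2, a sialyltransferase gene, and Tmem59l had both signs. The St3gal2 CpG in a B2 element 1907 bp before the start had -27.7 points in TKO and -32.1 in DKO, and its neighbour 1832 bp before the start 45.6 points in DKO and 45.6 in Tet2 KO. Tmem59l had 2 gains of 44.4 and 60.9 points in TKO, 1 of 39.4 in DKO, and 31.4 and -32.1 points in Tet2 KO.

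Present in all 4 lists against WT were 13 CpGs. Their values stand side by side below, and because each value is taken against the same WT clones they are not 4 observations of 1 effect. Higher in each were the CpGs nearest to Cdkn2aip (65.6, 38.7, 94.3 and 33.2 points for TKO, DKO, Tet2 KO and Tet1 KO, the order used for each gene here), Irx3 (47.3, 60.9, 60.9 and 37.3), Tox3 (25.5, 38.9, 46.4 and 40.8), St3gal2 (60.5, 60.5, 60.5 and 37.9), Zfpm1 (51.6, 51.6, 42.1 and 51.6) and Ces2h (45.2, 45.2, 45.2 and 34.7). Galnt2 (27.6, 51.4, 31.4 and 38), Drc7 (28, 44.3, 27.3 and 31.2) and the 2810004N23Rik CpG given above were also higher in each. Lower in each were those nearest to Gm5347 (-41.8, -57.7, -52.2 and -66.8), Gse1 (-26.5, -32.4, -40.3 and -34.8) and Zfp930 (-30.6 in all 4). The 1 CpG with both signs lay 130585 bp from Foxl1, a forkhead gene, at -44.4 points in TKO and 26.2 in the other 3.

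Most of these 13 CpGs lay far from a start: that of Irx3, a homeobox factor of patterning, 256353 bp before it, that of Tox3, an HMG-box factor, 188647 bp before it, and that of Zfpm1, the GATA cofactor FOG, 96988 bp before it. Only that of 2810004N23Rik was within 2000 bp, at 1363 bp. Over the chromosome, 61 CpGs had the same value (to 1e-06 points) in at least 2 of the lists against WT: 53 in 2 lists, 7 in 3 and 1, the Zfp930 CpG, in all 4. Neither the 61 nor the 13 CpGs were set beside counts of the other chromosomes, so they show no trait of chromosome 8. By the deposited annotation the 7 were nearest to Ank1 (70.4 points, inside Kat6a), St3gal2 (60.5), Zfpm1 (51.6), Ces2h (45.2), Cdh5 (39.9), Sall1 (-27.9) and Foxl1 (26.2). Where the WT value is the same, equal differences mean that the pooled knockout levels were equal.

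**Figure D5:**
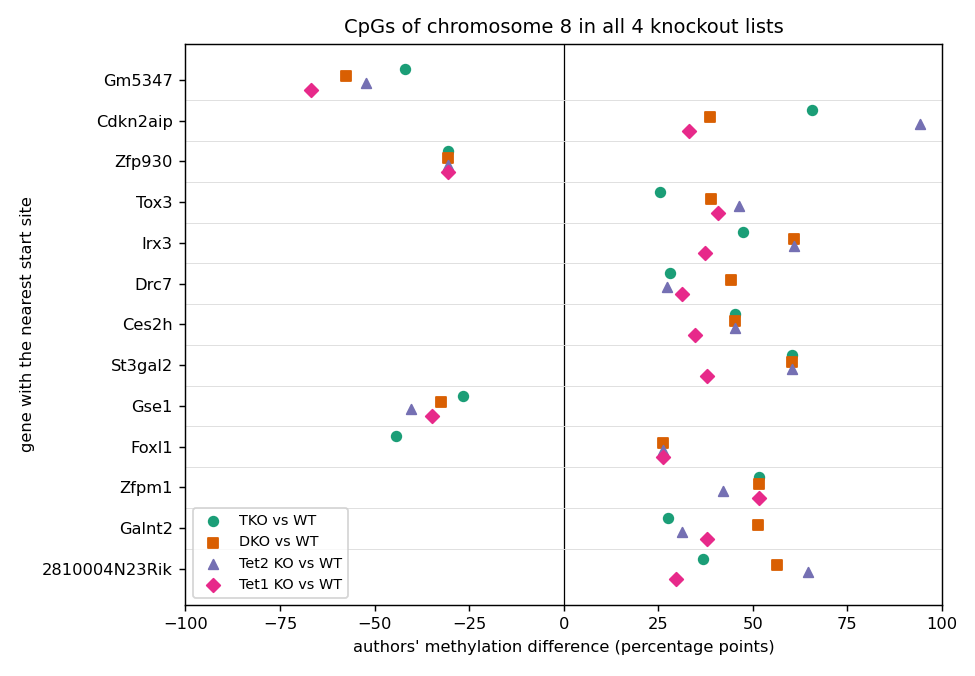
Authors' methylation difference in percentage points (x axis) for the 13 CpGs of chromosome 8 that were in all 4 lists against WT (y axis, named by the nearest start site, in order along the chromosome); each symbol is 1 knockout. Gm5347, Zfp930 and Gse1 lie below 0 in all 4, Foxl1 has 1 point at -44.4 and 3 at 26.2, and the other CpGs lie above 0.

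Counted by the gene model around them (a count chosen after its values were seen), the listed CpGs entered 205 genes in TKO, 188 in DKO, 178 in Tet2 KO, 138 in Tet1 KO and 112 in the direct comparison. Wwox, a long gene, held 16 in TKO, of which 10 were lower, 10 in DKO with 6 higher, 10 in Tet2 KO with 8 higher and 6 in Tet1 KO with 4 higher. Its values in TKO ran from -90.2 to 64.3 points. Cmip differed from this in direction: 7 of 7 CpGs were higher in TKO, 6 of 6 in DKO, 6 of 6 in Tet2 KO, 3 of 3 in Tet1 KO and 4 of 4 in Tet2 KO against Tet1 KO, with values between 25.7 and 61.0 points.

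Zfhx3 held 9 CpGs in DKO with 8 higher, 7 in Tet2 KO with 7 higher and 4 in TKO with 4 higher, while its 2 CpGs in Tet1 KO had -48.8 and -36.2 points. Cdh13, the T-cadherin gene, held 9 CpGs in Tet1 KO with 8 higher but 7 in DKO with 5 lower. Galntl6 had 4 of 4 lower in DKO, and Fam155a 5 of 5 higher in Tet2 KO. Dlgap2, a scaffold protein of the postsynapse, had 7 CpGs in TKO with 4 lower and 4 in Tet1 KO with 4 higher. Longer genes hold more CpGs, and these counts were not scaled to length.

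The gene lists used here group genes by role and count CpGs by the gene assigned to them. For TKO, Tet2 KO and Tet1 KO this was the nearest start in the deposited annotation. For DKO 304 of 559 CpGs took their gene from GENCODE models instead, so the DKO numbers are not comparable with the others. The share of all chromosome 8 genes with a listed CpG by these rules was not set beside the gene lists. The number of genes with a CpG, here and in the paragraphs that follow, therefore cannot show whether a role was enriched, which was not tested. Of 28 growth factor and signalling genes on chromosome 8, 17 had a listed CpG in TKO, with 20 of 25 CpGs higher (median 33.7 points), 12 in DKO with 15 of 20 higher (33.2), 12 in Tet2 KO with 20 of 21 higher (38.3) and 8 in Tet1 KO with 8 of 10 higher (28.6). Over all members of chromosome 8 the shares that were higher were those given above, 58.8%, 64.0%, 78.6% and 63.4%. Gab1, an adaptor of receptor tyrosine kinases, had 82.4 points in TKO, 59.7 in Tet2 KO and 27.8 in Tet1 KO at 1 CpG of its first intron. Dlc1, given above for its last exon, also had an intron CpG at 66.7 points in Tet2 KO and 35.9 in DKO, which was higher in Tet2 KO than in Tet1 KO by 65.2. Nrg1, a ligand of ErbB receptors, had 53.6 points in Tet1 KO and 31.5 in TKO at a CpG 87 bp after a start, and in DKO a pair of CpGs 111899 and 111909 bp before a start at -55.4 and -65.1 points. Gas6 had, beside the intron CpGs given above, a CpG 25192 bp before the start at 55.6 points in Tet2 KO, 53.5 in DKO and 28.6 in Tet1 KO. A CpG 25207 bp before the start had the opposite sign in DKO (-33.2) and in Tet1 KO (-41.6).

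Of 32 developmental transcription factor genes, 20 had a listed CpG in TKO, with 36 of 59 higher (median 27.3 points), 21 in DKO with 41 of 64 higher (30.6), 17 in Tet2 KO with 43 of 55 higher (30.4) and 15 in Tet1 KO with 15 of 31 higher (-27.8). Irf8, Maf, Zfpm1 and Irx3 were among those with CpGs in all 5 lists. Of the 4 lists against WT, that of Tet1 KO alone had more lower than higher CpGs in this group, at 16 against 15. A difference between lists was not tested. The medians of these gene lists were taken over both signs, and no difference under 25 points in size was listed. Where gains and losses are nearly equal in number, a single CpG can therefore turn the sign of the median. An intron CpG of Zfpm1 at 124830666 had -67 points in Tet2 KO, -45.2 in DKO and -31.6 in Tet1 KO. An Irf8 CpG 147651 bp downstream had -69.4 points in TKO and -61.1 in Tet2 KO. The CpG at -90.2 points in TKO in the last intron of Wwox had -45.4 points in Tet1 KO. Maf, a bZIP factor, was its nearest start in the deposited annotation, 541640 bp away. By GENCODE the nearest start was one of Wwox, 453087 bp away. An intergenic CpG nearest to Irx3 had 70.4 points in Tet2 KO and another -66.2 points in DKO.

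Of 24 cadherin and matrix genes, 8 had a listed CpG in TKO with 9 of 17 higher, 13 in DKO with 13 of 31 higher, 11 in Tet2 KO with 18 of 24 higher and 9 in Tet1 KO with 12 of 15 higher. In DKO the losses included the pair upstream of Fat1 (-61.7 and -60.2 points), Tenm3, a teneurin of synapse wiring (-60.7), and Sorbs2 (-88.3). Cdh13 was the nearest start, 124340 bp away, to a CpG at 57 points in Tet1 KO and 28.9 in Tet2 KO. Tll1, a metalloproteinase gene of matrix assembly, was the nearest start, 115191 bp away, to a CpG at 44.7 points in TKO and 25.4 in Tet2 KO. Of 25 synapse and channel genes, 10 had CpGs in TKO with 14 of 21 higher, 13 in DKO with 14 of 24 higher, 9 in Tet2 KO with 8 of 12 higher and 6 in Tet1 KO with 6 of 10 higher. Adgrl1, a latrophilin receptor of synapses, had an intron CpG at 98.5 points in DKO, another at 66.1 in TKO and 32.8 in Tet2 KO, and one more at -48.3 in Tet1 KO. Dlgap2 had an intron CpG at 68.2 points in TKO and 40.4 in Tet1 KO, and the values of Rab3a stand above. Ank1, an ankyrin gene, was in the deposited annotation the nearest start, 57045 bp away, to the CpG in Kat6a at 70.4 points in TKO, DKO and Tet2 KO. By GENCODE a Kat6a start was nearer, 3965 bp from the first CpG of that pair.

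Pluripotency and germ cell genes had few members. Of 14 such genes, 4 had a listed CpG in TKO with 6 of 8 higher, 2 in DKO with 2 of 2 higher, 3 in Tet2 KO with 4 of 5 higher and 5 in Tet1 KO with 3 of 6 higher. Zfp42, the pluripotency marker Rex1, was the nearest start, 46458 bp away, to a CpG at -41.4 points in TKO and 28.1 in Tet2 KO. Tdrp had 2 CpGs near its start at 50.1 and 40.6 points in TKO and a CpG 21110 bp away at -61.7 points in TKO and -48.6 in Tet1 KO. Triml1 was the nearest start, 639116 bp away, to a CpG at 58.1 points in Tet1 KO and 32.2 in Tet2 KO. Hmgb2, a chromatin protein counted in both this list and the next, had a promoter CpG at 33.3 points in Tet2 KO. Of 11 genes of the methylation and chromatin machinery, 5 had CpGs in TKO with 2 of 9 higher, 2 in DKO with 1 of 2 higher, 3 in Tet2 KO with 3 of 5 higher and 5 in Tet1 KO with 4 of 5 higher. Ing2, a reader of histone methylation, was the nearest start to 3 of the lower CpGs in TKO (-26.9, -37.6 and -29.7 points) and had -30.7 points in DKO at 1 of them. Ankrd11, a chromatin regulator, had an intron CpG at 50.8 points in DKO and -27.8 in TKO. Rbl2 had, beside the CpG given above, -52.4 points in TKO in a LINE element 29450 bp after its start. RNA levels were not analysed here.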

How the data were processed

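RRBS libraries were prepared with the Premium RRBS kit from genomic DNA of 12 ESC clones. The authors trimmed reads with Trim Galore 0.5 (per the labels) and clipped their first 6 bases, aligned them to mm9 with Bismark 0.19.1, called differentially methylated CpGs between genotypes with methylKit and annotated them with HOMER. The deposited values are the authors' differences in methylation at single CpGs in percentage points, and distances to a TSS in bp. Depth, levels, q-values and values per clone were not used here, and no error can be given for 1 CpG.

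CpGs on chromosome 8 (mm9, 131738871 bp) were kept. An unplaced contig of this chromosome (4 entries) was left out. In the Tet2 KO against Tet1 KO list 136 of 288 cytosines lay on the reverse strand and were moved to the forward cytosine, and at all 11 CpGs with both single-knockout values its sign was that of Tet2 KO minus Tet1 KO. Over all chromosomes this merged 31671 deposited rows into 31663 entries, with none merged on chromosome 8. The DKO annotation columns were out of row order and were not used: 255 of 559 DKO CpGs took the annotation of the same CpG in another list and 304 that of GENCODE vM1. The long read-through model Gm20388 was left out of gene models. Older GENCODE symbols were replaced where RefSeq names gave a unique current symbol that the lists use. Classes and distances otherwise came from GENCODE vM1 or the deposited HOMER columns. Promoters spanned 1000 bp before to 100 bp after a start. CpGs within 1000 bp were merged into regions.

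The text names, for each list, the 5 regions with the most CpGs (ties by size), up to 6 genes with the most CpGs within 2000 bp of a start, the 3 highest and 3 lowest CpGs and the 3 windows of 10 Mb with the most CpGs. Over lists it names the CpGs in all 4 lists against WT, the genes with a CpG near the start in at least 3 of them, and up to 4 genes of each gene list, by number of lists and size. Members, lists and rules were chosen with earlier results of these data known. No test was run, since the members were listed by the differences themselves. Python 3.11.15, pandas 2.3.3, numpy 2.4.6 and scipy 1.17.1 were used, and the merging, digest and interval steps were tested on simulated data. Alternatives were minimum differences of 30 and 40 points, merged regions, repeats left out, and other digests. One of the lowest values in Tet2 KO is not reported here.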

Additional observations from a re-analysis of the deposited data

How the results depend on the processing

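The share of higher CpGs on chromosome 8 stayed within its interval under the other settings, except that with a minimum difference of 40 points it was 63.6% of 258 CpGs in TKO and 69.5% of 243 in DKO. The listed CpGs per 10000 digest CpGs depended on what the digest counts. With all CpGs of a fragment they were 45.9, 40.6, 39.2, 27.7 and 20.8 in TKO, DKO, Tet2 KO, Tet1 KO and Tet2 KO against Tet1 KO. With the CpGs of CCGG sites left out, an alternative chosen after seeing the data, they were 116, 102, 99.2, 69.7 and 52.5. Both alternatives change the denominator, and chromosome 8 ranked 2 of 19 autosomes in each. Of 45 alternative values 33 stayed within the counting interval of the main value. No paired analysis was possible because the lists hold 1 pooled value per CpG and no column per clone, and for the same reason no clone could be left out. Repeats could not be left out of the DKO list, whose annotation was out of row order. Depth and the tested CpGs are not in the lists, so the digest only stands in for the reachable CpGs.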

Other observations

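Neighbouring listed CpGs did not always share a direction. Of pairs of consecutive listed CpGs at most 100 bp apart, 5 of 69 had opposite signs in TKO, 8 of 60 in DKO, 6 of 49 in Tet2 KO, 3 of 22 in Tet1 KO and 3 of 21 in Tet2 KO against Tet1 KO. The largest contrast was in DKO, where intron CpGs nearest to Tmem161a at 72705268 and 72705323 had 86.4 and -61.2 points. Nearest to Gas6, between genes, the CpGs at 13519727 and 13519742 had 53.5 and -33.2 points in DKO and 28.6 and -41.6 points in Tet1 KO, and the first was also listed at 55.6 points in Tet2 KO. In the last exon of Dlc1 the CpGs at 37633326 and 37633331 had -30.7 and 26.9 points in TKO. In an exon of Helt the CpGs at 47377631 and 47377649 had 54.2 and -27.3 points in Tet2 KO. Depth per CpG was not used here, so the error of these values is unknown.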
